A study of Mus musculus with 6 samples.

Results

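Nucleolar ribosome biogenesis factors were described here as 39 genes of 54232 in the count table, taken by symbol: each of the 39 symbols named exactly 1 gene, and all 39 had enough counts to be tested. The libraries are splenic chronic lymphocytic leukaemia (CLL) cells of mice, in 2 groups of 3 libraries. In both groups, mononuclear cells from the spleens of terminally ill Eµ-TCL1 mice, whose B cells carry the TCL1 oncogene under the immunoglobulin heavy-chain enhancer, had been injected into the peritoneum of wild-type C57BL/6J recipients. Treatment by mouth began on day 5 after transfer and ran for 8 weeks, with 5 treatment days followed by 2 days of rest. CK1i recipients received the compound PF-670462 (50 mg/kg), which blocks the delta and epsilon forms of casein kinase 1, dissolved in PBS with 10% kolliphor, and CTRL recipients received only this vehicle. The recipients were killed when the CTRL mice had at least 60% leukaemia cells among blood leukocytes, and leukaemic B cells were sorted from the spleen. The transferred cells grew beside the recipients' own normal immune system. The labels used here give no age, no number of donor mice, and no statement that each library is 1 mouse, so the p-values below measure the spread between these libraries, which could be technical.

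Ribosomes are assembled mainly in the nucleolus. RNA polymerase I transcribes the ribosomal DNA, small nucleolar ribonucleoproteins (snoRNPs) guide the methylation and pseudouridylation of the precursor RNA, and many assembly factors cut, fold and escort the precursors of the 40S (small) and 60S (large) subunits. The genes of this machinery are well known targets of the MYC transcription factor and usually rise with cell growth. Casein kinase 1 delta and epsilon, the kinases that PF-670462 inhibits, themselves act in the last steps of 40S maturation, where they phosphorylate the assembly factor LTV1.

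Expression was measured from 3′ ends of polyadenylated RNA, and the libraries held 2472064 to 3105137 counts. CTRL replicate 1 stood apart from the other 5 libraries on the first principal component of log2 CPM, at 31.4 where the others lay between -12.4 and 4.68, and on the second CTRL replicate 3 lay at -26.7 and CK1i replicate 3 at 20.7, where the others lay between -3.13 and 10.4. Results are also given without each of these libraries. Values are CPM (counts scaled to a common library size) after scaling by trimmed mean of M-values (TMM). They are not divided by transcript length, so levels are compared only within a gene. All 10 B-cell and CLL markers were detected, with summed levels of 7409 to 7707 CPM in CK1i and 7402 to 8438 CPM in CTRL, and the 8 T-cell markers summed to at most 18.4 CPM. Of the B-cell markers, 7 had lower values in CK1i, with a median log2 fold change of -0.14 and 0 at an unadjusted p under 0.05. The 5 plasma-cell markers summed to 468 to 1295 CPM in CK1i and 863 to 1603 CPM in CTRL (3 lower, median -0.26). The part of these differences in the values below was not tested. The 8 monocyte and macrophage markers summed to 33.9 to 39.5 CPM in CK1i and 23.8 to 27.5 CPM in CTRL. Cd68 carried most of that sum, Cd14 and Fcgr1 had 0 counts, and the part of this difference in the values below was not tested. The 6 stroma and endothelium markers summed to 163 to 177 CPM in CK1i and 176 to 191 CPM in CTRL. Of these, Col3a1 and Cxcl12 had 0 counts, and the part of this difference was not tested either. The same holds for 22 proliferation genes, whose summed level was 3048 to 4191 CPM in CK1i and 1560 to 2934 CPM in CTRL.

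In the comparison of CK1i with CTRL, 34 of the 39 nucleolar genes (87.2%) had lower values in CK1i, where 51.1% of all 10067 tested genes did. The differences were small. The median log2 fold change of the 39 genes was -0.15, a level lower by 10.2%, with single genes between -0.54 and 0.07, and the median over all tested genes was -0.0052. No gene of the 39 passed the threshold of edgeR's quasi-likelihood test with Benjamini-Hochberg adjustment (adjusted p under 0.05), and the share passing among all tested genes was also 0%. The smallest adjusted p among the 39 was 0.857, for Nop56, and the other 38 were at 0.99987. At an unadjusted edgeR p under 0.05, 3 of the 39 (7.69%) were lower, where 1.99% of all genes were, and 0 were higher, where 2.65% of all genes were (4.64% in either direction). The CK1i and CTRL libraries did not overlap in 4 genes (10.3%), Nop56, Rrp9, Wdr43 and Bysl, all with every CK1i library below every CTRL library. Over all genes, 4.48% lay below in this way, 5.22% lay above, and 9.70% did not overlap in either direction. With no gene past the adjusted threshold, the measured pattern is a shared direction of small differences. In sorted bulk cells, fewer cells with a high level and a lower level in every cell cannot be told apart.

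**Figure D1:**
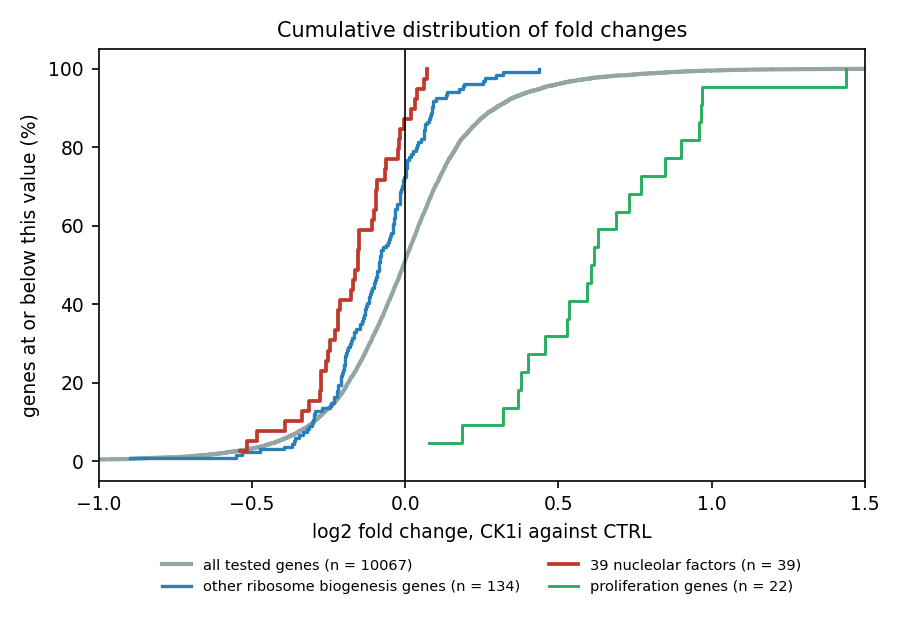
Cumulative share of genes (y axis, %) at or below each log2 fold change of CK1i against CTRL (x axis) for the 39 nucleolar factors, 134 other ribosome biogenesis genes, 22 proliferation genes and all 10067 tested genes. The curve of the 39 nucleolar factors crosses 0 at 87.2% and that of all tested genes at 51.1%, while all proliferation genes lie above 0.

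The shared direction was carried unequally by the libraries. Each gene's log2 CPM (prior count 2) was set against its own mean over the 6 libraries, and the median of these deviations over the 39 genes was -0.13, -0.079 and -0.022 in the CK1i libraries (replicates 1, 2 and 3). The CTRL libraries had -0.070, 0.070 and 0.20 in the same order. The groups overlapped, because CTRL replicate 1 lay among the CK1i libraries. CTRL replicate 3 held the highest value of 22 of the 39 genes (56.4%), where it held the highest of 19.4% of all tested genes. The lowest value fell in CK1i replicate 1 for 13 genes (33.3%), in CTRL replicate 1 for 13 (33.3%) and in CK1i replicate 2 for 11 (28.2%). Over all tested genes these libraries held the lowest value of 15.3%, 21.8% and 14.5%, in the same order. The 39 genes together took 0.502%, 0.514% and 0.545% of the counts in CK1i and 0.479%, 0.584% and 0.596% in CTRL, which is 0.520% ± 0.022 and 0.553% ± 0.064 (SD, n = 3).

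Leaving out 1 library moved the summary in both directions. Without CTRL replicate 3, 25 of 39 genes (64.1%) were lower and the median log2 fold change was -0.093. In that fit 1 of the 39 had an unadjusted edgeR p under 0.05, beside 3.83% of all genes. Without CTRL replicate 1, the CTRL library with the lowest values of these genes, 37 of 39 were lower and the median was -0.24. An unadjusted edgeR p under 0.05 was then reached by 9 of the 39, beside 5.89% of all genes, and 0 passed adjustment (smallest adjusted p 0.804). Such genes among the 39 numbered 2, 1 and 5 without CK1i replicates 1, 2 and 3, beside 5.13%, 3.37% and 3.79% of all genes. Their number was 2 without CTRL replicate 2, beside 6.66% of all genes. With 5 libraries, groups overlap less often by construction, so the genes without overlap are set beside all genes of the same fit. Without CTRL replicate 1 they numbered 19, all lower in CK1i, where 10.9% of all genes lay below and 21.5% did not overlap in either direction. Without CK1i replicate 3 they numbered 14, all lower, beside 9.17% below and 18.3% in either direction. In the other fits the genes without overlap were fewer. There were 5 (12.8%) without CK1i replicate 1, beside 9.88% below and 20.04% in either direction, and 6 (15.4%) without CK1i replicate 2, beside 9.11% and 18.2%. Without CTRL replicate 2 there were 8 (20.5%), all lower, beside 10.7% and 21.8%. Without CTRL replicate 3 there were 9 (23.1%), 7 below and 2 above in CK1i. All genes of that fit had 8.24% below and 17.4% in either direction.

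Single genes changed sign in many of these fits. Of the 39 genes, 18 had the opposite sign in at least 1 of the 12 alternatives that refit the genes, 13 of the 34 with lower values and all 5 with higher values, and 11 of the 39 did so without CTRL replicate 3. The other 21 genes, all with lower values, kept their sign in each alternative that tested them.

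**Figure D2:**
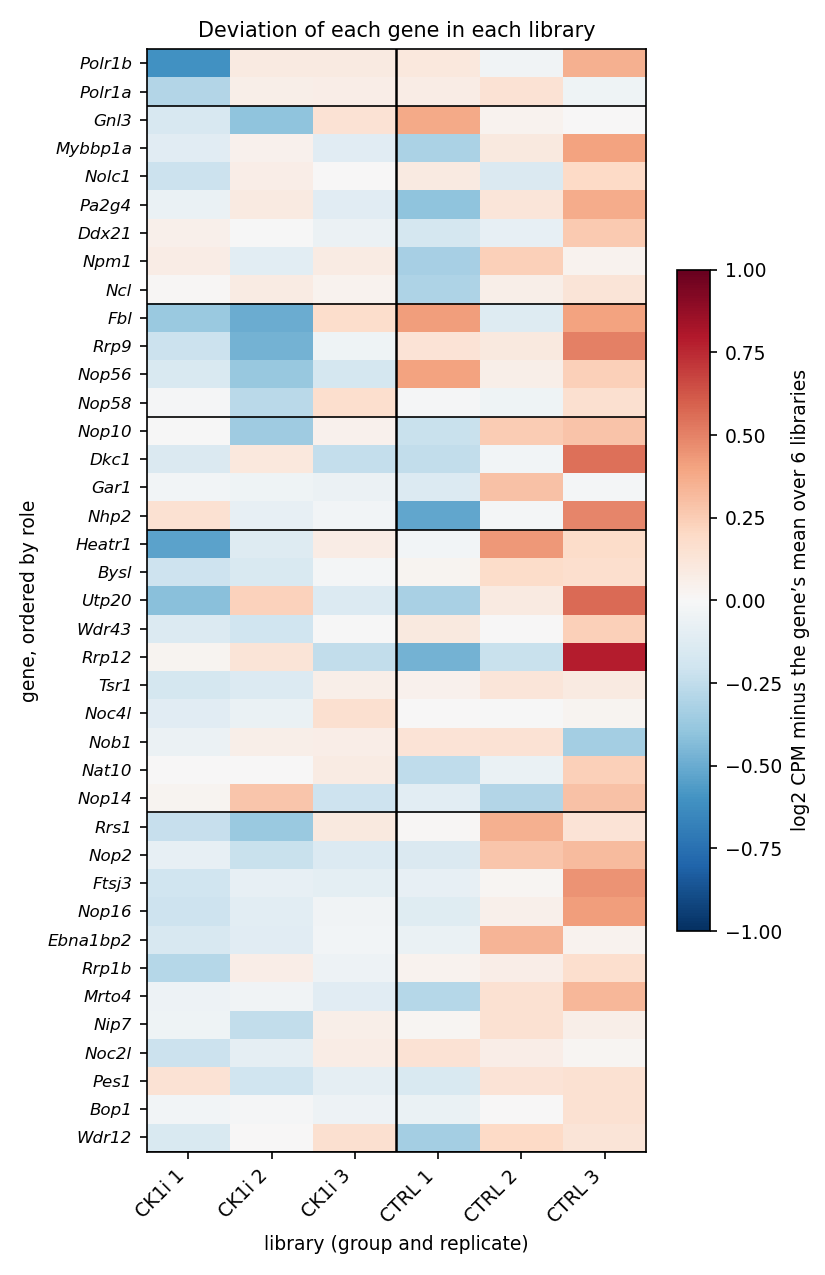
Deviation of log2 CPM from the gene's own mean over the 6 libraries (colour, from -1 to 1) for the 39 genes (rows, ordered by role and within a role by fold change) in each library (columns). The CTRL 3 column is the reddest and holds the highest value of 22 genes; the CTRL 1 column is mixed, red for Nop56, Fbl and Gnl3 and blue for most scaffold and box H/ACA genes.

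Box C/D snoRNPs, which place 2′-O-methyl groups on ribosomal RNA, were the role with the lowest median fold change. All 4 genes of this role were lower (median log2 fold change -0.50), beside 51.1% of all tested genes. An unadjusted edgeR p under 0.05 was reached by 2 of them, beside 1.99% of all genes lower. The same shares of all genes stand beside the counts of the other roles below. Snu13, a further protein of these particles that is listed with the assembly factors below, was higher in CK1i (0.26 ± 0.22). Nop56, a core protein of these particles on chromosome 2 (130274430 to 130279313, GRCm38), had 48.4, 41.4 and 47.7 CPM in CK1i and 71.7, 56.3 and 63.8 CPM in CTRL. Every CK1i library lay below every CTRL library, and the log2 fold change was -0.48 ± 0.16 (SE; edgeR unadjusted p = 0.00808). Rrp9, the U3-specific protein of the C/D particle that starts the early cleavages of the precursor, had 22.4, 18.6 and 25.3 CPM in CK1i and 28.8, 27.9 and 37.4 CPM in CTRL. These groups did not overlap either, with a log2 fold change of -0.51 ± 0.20 (edgeR unadjusted p = 0.0228). Nop56 kept an unadjusted p under 0.05 in all 12 alternative analyses, and Rrp9 in 10 of them; without CK1i replicate 2 and without CTRL replicate 3 it did not.

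Fbl, which encodes the methyltransferase fibrillarin, had the lowest fold change of the 39 genes and also the fewest counts. It was at 3.62, 3.26 and 5.61 CPM in CK1i and 6.74, 4.39 and 6.68 CPM in CTRL, with 85 counts in all 6 libraries. The groups overlapped, and the log2 fold change was -0.54 ± 0.38 (SE; edgeR unadjusted p = 0.174). Nop58, the partner of Nop56 in the same particle, differed little, with a log2 fold change of -0.06 ± 0.15. With 1 library left out, Nop58 ran from -0.18 to 0.041. Whether Nop56 and Nop58 differ from each other was not tested.

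Several of the genes also carry, in their introns, the RNAs that snoRNP proteins bind. In the GENCODE M21 annotation, 7 of the 39 genes (17.9%), Ncl, Gnl3, Nop56, Nop58, Dkc1, Wdr43 and Tsr1, hold snoRNA genes on their own strand, where 1.91% of the 9233 tested protein-coding genes do. They hold 21 snoRNAs, 20 of which lie in introns of the host's coding transcripts. The 7 hosts had a median log2 fold change of -0.22, and the 32 other genes -0.15. The snoRNAs were not measured by these libraries, which start from polyadenylated ends: 13 had 0 counts and the highest had 30 over all 6 libraries. As examples, 1 snoRNA each is printed from introns of Nop56 (chr2:130275506-130275573), Nop58 (chr1:59704790-59704873), Ncl (chr1:86356261-86356330, minus strand), Gnl3 (chr14:31014287-31014366, minus strand) and Wdr43 (chr17:71631281-71631365), 5′ to 3′ as DNA letters of the GRCm38 transcripts. Capitals mark a C box (TGATGA, searched in the first 20 bases) and a D box (CTGA, in the last 15 bases), the 2 short motifs on which the NOP56, NOP58 and fibrillarin proteins assemble. Of the 21 snoRNAs, which are not all of the box C/D class (Snora75 is box H/ACA), 8 held both in these exact letters. Boxes in other letters or outside these stretches were not counted.
Snord110: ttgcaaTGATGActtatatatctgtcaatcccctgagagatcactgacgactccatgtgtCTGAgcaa
Snord11: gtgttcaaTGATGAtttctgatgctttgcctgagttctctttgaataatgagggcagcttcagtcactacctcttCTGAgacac
Snord82: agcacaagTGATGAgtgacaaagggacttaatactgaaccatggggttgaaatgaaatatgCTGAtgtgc
Snord69: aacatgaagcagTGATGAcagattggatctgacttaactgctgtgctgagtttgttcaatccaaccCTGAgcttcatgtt
Snord92: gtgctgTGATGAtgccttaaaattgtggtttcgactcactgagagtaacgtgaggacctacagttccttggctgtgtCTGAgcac

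Box H/ACA snoRNPs, which turn uridine into pseudouridine, had lower values for all 4 genes (median -0.16 on the log2 scale) and 0 genes at an unadjusted p under 0.05. Nop10, a small core protein, had 267, 208 and 275 CPM in CK1i and 229, 319 and 325 CPM in CTRL. CTRL replicate 1 lay between the CK1i libraries, and the log2 fold change was -0.22 ± 0.17. Dkc1, the pseudouridine synthase dyskerin, had -0.22 ± 0.19, which turned to 0.052 without CTRL replicate 3, the library at 124 CPM where the other 5 were between 71.4 and 91.3 CPM. Gar1 had -0.10 ± 0.15, which turned to 0.027 without CTRL replicate 2. Nhp2 had -0.02 ± 0.22 and ran from -0.25 to 0.28 with 1 library left out, so Nop10 alone of the 4 kept its sign.

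RNA polymerase I itself was represented by its largest subunits. Polr1a had 72.1, 92.0 and 92.6 CPM in CK1i and 93.0, 97.8 and 85.8 CPM in CTRL, and its log2 fold change was -0.11 ± 0.15, and 0.00075 without CK1i replicate 1. Polr1b had 11.8, 19.6 and 19.7 CPM in CK1i and 19.9, 18.0 and 23.7 CPM in CTRL, with -0.28 ± 0.24. In both genes CK1i replicate 1 was the low library and the remaining CK1i libraries lay within the CTRL range.

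**Figure D3:**
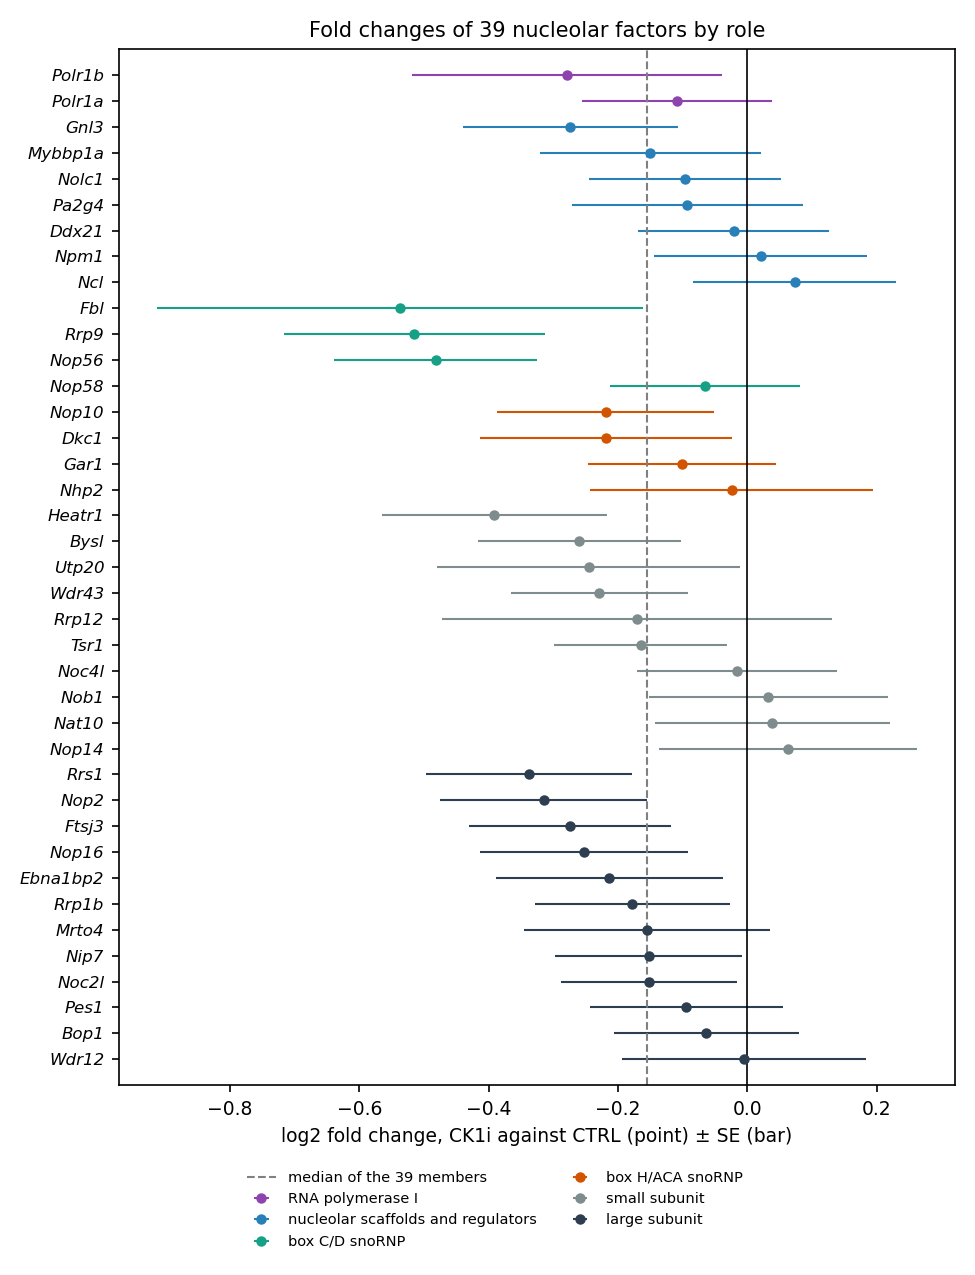
Log2 fold change of CK1i against CTRL (x axis; points, with SE as bars) for each of the 39 genes (y axis), coloured by role, with the median of the 39 at -0.15 as a dashed line. Of the 39 points, 34 lie left of 0, and Fbl, Rrp9 and Nop56 lie farthest left.

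The abundant scaffold and regulatory proteins of the nucleolus had the values nearest to 0, with a median log2 fold change of -0.09 over 7 genes. Ncl, which encodes nucleolin, a histone chaperone and RNA-binding protein of the nucleolus, had 1098, 1152 and 1115 CPM in CK1i and 878, 1133 and 1189 CPM in CTRL (log2 fold change 0.07 ± 0.16). Npm1, the nucleophosmin gene, had 729, 642 and 732 CPM in CK1i and 549, 817 and 707 CPM in CTRL (0.02 ± 0.16). In both genes the CK1i libraries lay inside the range of the CTRL libraries, whose lowest value was replicate 1; without that library the fold changes turned to -0.05 and -0.12. Ddx21, an RNA helicase of ribosomal RNA transcription and processing, had 318, 308 and 295 CPM in CK1i and 273, 291 and 369.6 CPM in CTRL (-0.02 ± 0.15), and turned to 0.12 without CTRL replicate 3.

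Gnl3, the gene of the GTP-binding protein nucleostemin, was the scaffold gene with the lowest fold change. It had 177, 149 and 219 CPM in CK1i and 258, 202 and 198 CPM in CTRL, so CK1i replicate 3 lay within the CTRL range, and the log2 fold change was -0.27 ± 0.17. Mybbp1a, which binds MYB and represses ribosomal DNA transcription, had -0.15 ± 0.17, Nolc1, a chaperone of snoRNPs, -0.10 ± 0.15, and Pa2g4, an ERBB3-binding growth regulator, -0.09 ± 0.18. Without CTRL replicate 3, Mybbp1a turned to 0.038 and Pa2g4 to 0.094.

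Small-subunit factors were lower for 7 of 10 genes (median -0.17). Heatr1, a component of the small-subunit processome that also promotes transcription by polymerase I, had 85.2, 113 and 130.3 CPM in CK1i and 122, 168 and 141 CPM in CTRL. The groups overlapped in 1 pair of libraries, CK1i replicate 3 above CTRL replicate 1, and the log2 fold change was -0.39 ± 0.17 (SE; edgeR unadjusted p = 0.0415). Bysl, which binds the 40S precursor from the nucleolus to the cytoplasm, had 34.9, 36.2 and 39.7 CPM in CK1i and 41.2, 45.9 and 45.4 CPM in CTRL. Its groups did not overlap, with a log2 fold change of -0.26 ± 0.16 (edgeR unadjusted p = 0.120). Wdr43, a processome component needed for early transcription-coupled steps, had 253, 241 and 278 CPM in CK1i and 297, 279 and 328 CPM in CTRL, again without overlap (-0.23 ± 0.14).

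The remaining small-subunit genes lay closer to 0 or varied within CTRL. Nop14, a processome protein (0.06 ± 0.20), Nat10, the acetyltransferase of 18S ribosomal RNA (0.04 ± 0.18), and Nob1, the nuclease that makes the mature 3′ end of 18S ribosomal RNA (0.03 ± 0.18), were the 3 with higher values in CK1i, and each changed sign with 1 library left out, as did Noc4l below. Rrp12, which helps to export precursor subunits, had 19.3 to 25.1 CPM in CK1i and 16.3, 19.6 and 40.1 CPM in CTRL, and its log2 fold change turned from -0.17 ± 0.30 to 0.34 without CTRL replicate 3. Utp20, a large processome protein, likewise turned from -0.25 ± 0.23 to 0.025 without that library. Tsr1, which sits on the late 40S precursor, had -0.16 ± 0.13, and Noc4l, the partner of Nop14, -0.02 ± 0.15.

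**Figure D4:**
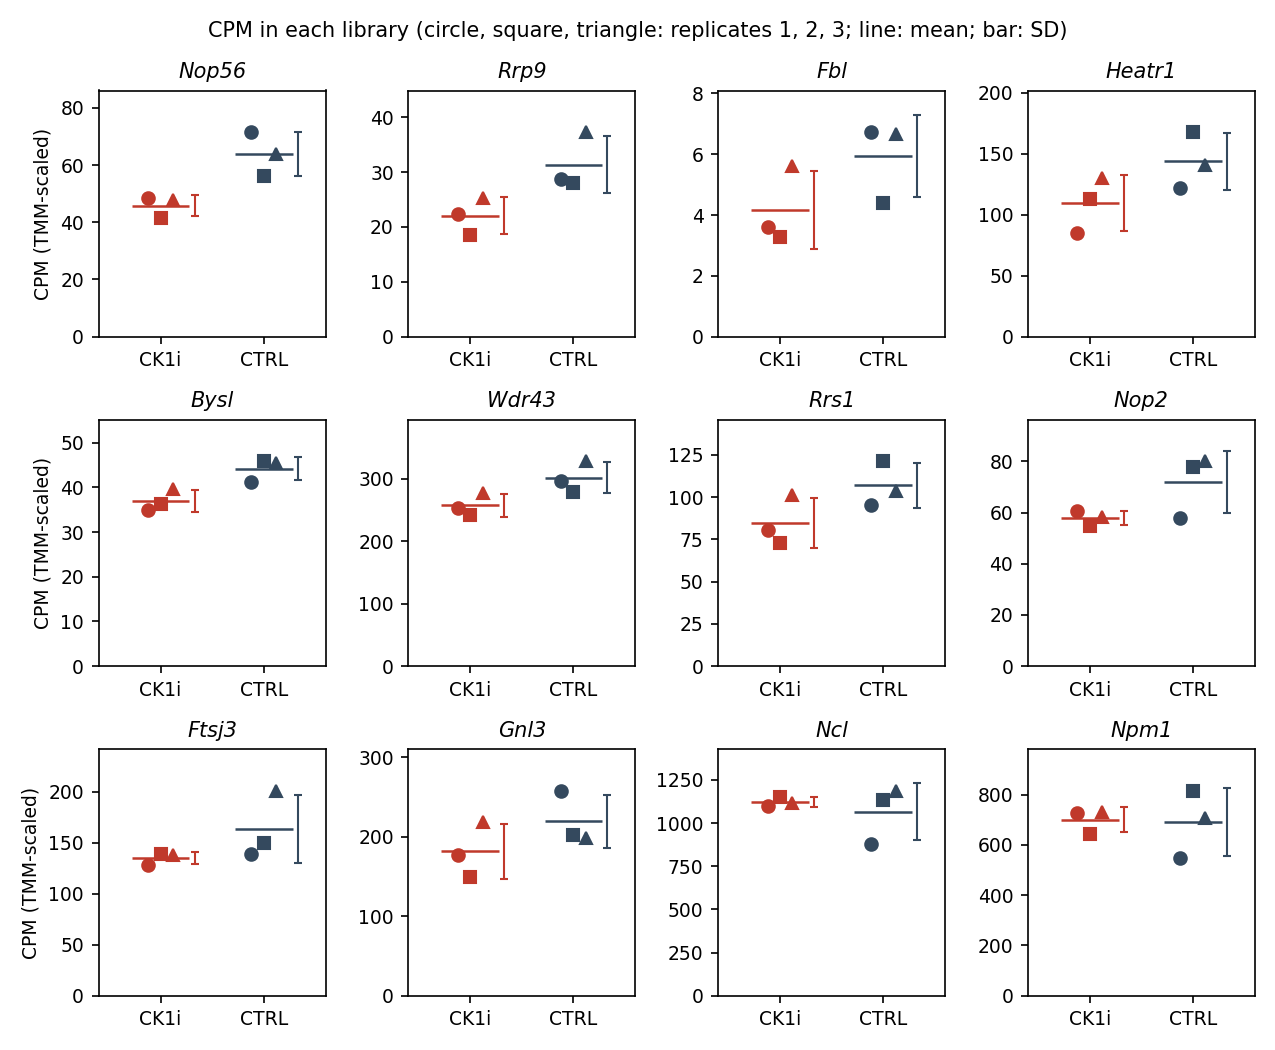
TMM-scaled CPM (y axes, from 0) of 12 of the 39 genes in each library of CK1i (red) and CTRL (dark blue); symbols mark replicates 1 to 3, horizontal lines the mean and side bars the SD (n = 3). Nop56, Rrp9, Bysl and Wdr43 show 2 groups without overlap, and in Ncl and Npm1 CTRL replicate 1 is the lowest point.

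Large-subunit factors were lower for all 12 genes, from -0.34 to -0.0050 on the log2 scale (median -0.17), with 0 genes at an unadjusted p under 0.05. Of the 12, 10 kept this direction in every alternative; Wdr12 changed sign in 5 of the 12 alternatives and Bop1 without CTRL replicate 3. Rrs1, which brings the 5S particle to the 60S precursor, had 80.3, 72.7 and 101 CPM in CK1i and 95.5, 121 and 104 CPM in CTRL. Only CK1i replicate 3 reached into the CTRL range, and the log2 fold change was -0.34 ± 0.16 (SE; edgeR unadjusted p = 0.0514). Nop2, a cytosine methyltransferase of 28S ribosomal RNA, had 60.5, 54.8 and 58.2 CPM in CK1i and 57.9, 77.8 and 80.1 CPM in CTRL (-0.31 ± 0.16). Here CTRL replicate 1 lay within the CK1i range, far below the other CTRL libraries.

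Ftsj3, a ribosomal RNA methyltransferase of the 60S precursor, had 128, 139 and 138 CPM in CK1i and 139, 149 and 201 CPM in CTRL (-0.27 ± 0.16). Nop16 had 68.1, 73.1 and 76.6 CPM in CK1i and 72.1, 81.4 and 105 CPM in CTRL (-0.25 ± 0.16). In both genes CTRL replicate 3 was the high library and CTRL replicate 1 touched the CK1i range. The PeBoW complex, the trio of Pes1, Bop1 and Wdr12 that is needed to make the 28S and 5.8S ribosomal RNAs, had log2 fold changes of -0.09 ± 0.15, -0.06 ± 0.14 and -0.0050 ± 0.19. The other 5 genes had -0.21 ± 0.18 (Ebna1bp2), -0.18 ± 0.15 (Rrp1b), -0.15 ± 0.19 (Mrto4), -0.15 ± 0.14 (Nip7) and -0.15 ± 0.14 (Noc2l).

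Promoter sequences were compared because MYC and MAX bind the E-box CACGTG, a palindrome that reads the same on both strands. RefSeq promoters on GRCm38.p6, 250 bases before to 50 bases after the start, were found for 34 of the 39 genes. The E-box was in the promoter of 6 of the 34 (17.6%), Mybbp1a, Nop2, Pes1, Tsr1, Utp20 and Wdr43, beside 12.4% of the 7711 tested genes with a promoter and 8.09% of all 27025 genes with one. The 6 had log2 fold changes from -0.31 to -0.094, within the range of the 28 without it (-0.51 to 0.073). The promoters of Nop2, Wdr43 and Nop56 are printed, with the E-box in capitals: Nop2, chr6:125131633-125131932 (plus strand), with the E-box 60 bases before the start; Wdr43, chr17:71615965-71616264 (plus strand), with the E-box 18 bases into the transcript; and Nop56, chr2:130274162-130274461 (plus strand), the gene with the smallest p, where these letters do not occur.
Nop2: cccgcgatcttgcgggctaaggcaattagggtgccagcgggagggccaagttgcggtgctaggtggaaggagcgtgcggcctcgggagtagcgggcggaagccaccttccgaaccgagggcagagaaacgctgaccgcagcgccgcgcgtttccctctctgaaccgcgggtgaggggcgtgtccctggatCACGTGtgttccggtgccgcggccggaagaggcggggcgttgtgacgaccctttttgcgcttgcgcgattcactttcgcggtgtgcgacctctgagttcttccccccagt
Wdr43: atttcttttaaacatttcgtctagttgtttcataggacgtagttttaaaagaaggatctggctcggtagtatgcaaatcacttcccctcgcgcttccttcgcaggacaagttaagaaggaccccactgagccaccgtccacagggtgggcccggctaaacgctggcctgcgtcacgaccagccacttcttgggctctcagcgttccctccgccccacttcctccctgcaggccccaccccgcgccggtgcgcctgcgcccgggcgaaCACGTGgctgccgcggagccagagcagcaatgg
Nop56: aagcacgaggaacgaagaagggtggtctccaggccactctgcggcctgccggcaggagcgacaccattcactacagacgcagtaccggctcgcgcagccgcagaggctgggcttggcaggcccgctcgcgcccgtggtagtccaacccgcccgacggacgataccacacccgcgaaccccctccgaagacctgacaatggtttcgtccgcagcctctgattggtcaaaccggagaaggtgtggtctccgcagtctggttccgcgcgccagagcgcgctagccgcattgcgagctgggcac

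Counts of some members may be affected by reads of a neighbour, since the strand setting of the counting was not given in the sources used. Overlap was taken over whole gene spans, introns included, and overlap of exons was not tested. A gene on the opposite strand with more than 100 counts overlaps 10 of the 39 genes, among them the 3 with the smallest p. The log2 fold changes of their partners were -0.07 ± 0.14 for Idh3b, opposite Nop56, 0.19 ± 0.15 for Parp3, opposite Rrp9, and -0.15 ± 0.15 (SE) for Lgals8, opposite Heatr1. Idh3b held 1456 counts where Nop56 held 927, Parp3 1575 where Rrp9 held 451, and Lgals8 1722 where Heatr1 held 2117. Like Nop56 and Rrp9, and unlike Heatr1, the genes Bysl, Gnl3 and Nhp2 held fewer counts than their partners. Ccnd3 held 799 where Bysl held 683, Pbrm1 6058 where Gnl3 held 3369, and Rmnd5b 1380 where Nhp2 held 971. The part of these overlaps in the values was not tested.

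Further genes of the pathway were read from a list of 135, all in the table, of which 134 were tested. Earlier results of these data were known when the list was chosen. Of the 134, 97 (72.4%) had lower values in CK1i, beside 51.1% of all tested genes, and the median log2 fold change was -0.08. An unadjusted edgeR p under 0.05 was reached by 7, all lower (5.22%), beside 1.99% of all genes lower and 4.64% in either direction. The groups did not overlap in 17 (12.7%), 15 below and 2 above, beside 9.70% of all genes in either direction, and 0 passed adjustment. Utp18, a processome component, had 31.6, 31.3 and 31.3 CPM in CK1i and 43.3, 39.9 and 52.7 CPM in CTRL, without overlap (-0.53 ± 0.17). Nol9, a polynucleotide kinase of 60S precursor processing, had 45.7, 49.6 and 42.5 CPM in CK1i and 56.8, 59.9 and 61.4 CPM in CTRL (-0.37 ± 0.15). Efl1, the GTPase that frees the 60S subunit of its last anti-association factor, had 29.0, 28.4 and 28.9 CPM in CK1i and 35.5, 36.3 and 41.4 CPM in CTRL (-0.39 ± 0.17). These 3 genes were lower in every CK1i library.

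Among the other lists by role, the remaining polymerase I genes lay nearest to 0, with 8 of 13 lower and a median of -0.02, led by Ubtf, the ribosomal DNA transcription factor UBF (-0.21 ± 0.15). Further small-subunit genes were lower for 29 of 38 (median -0.08), with Rcl1 at -0.55 ± 0.23 and, in the other direction, Ddx52 at 0.19 ± 0.15. Further large-subunit genes were lower for 34 of 50 (median -0.07), with Bccip at 0.25 ± 0.15 and Senp3 at 0.44 ± 0.30 as the higher genes with the smallest p. The exosome and other ribosomal RNA nucleases were lower for 10 of 14 (median -0.14), led by Exosc7 (-0.36 ± 0.15), and Exosc3 had 0.32 ± 0.23. The snoRNP assembly factors were lower for 7 of 9 (median -0.07), led by Ruvbl2 (-0.90 ± 0.42), which held 71 counts, while Snu13 had 0.26 ± 0.22.

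Late 40S maturation is the step in which the inhibited kinases act. Of 10 genes listed for it 9 had lower values in CK1i, beside 51.1% of all tested genes. The median log2 fold change of the 10 was -0.16, with 0 at an unadjusted p under 0.05. Ltv1, the substrate of the kinases, had 89.2, 57.7 and 73.4 CPM in CK1i and 90.2, 82.2 and 86.5 CPM in CTRL (-0.23 ± 0.16), so CK1i replicate 1 lay within the CTRL range. The kinase genes themselves had log2 fold changes of -0.17 ± 0.14 for Csnk1d and -0.30 ± 0.19 for Csnk1e. Csnk1d had 139, 134 and 142 CPM in CK1i and 143, 148 and 174 CPM in CTRL, without overlap. The RIO kinases, which release factors from the 40S precursor, had -0.22 ± 0.14 (Riok1), -0.21 ± 0.18 (Riok2) and -0.09 ± 0.15 (Riok3). Pno1, the partner of Nob1, had -0.09 ± 0.15, Tsr2 -0.15 ± 0.21, Tsr3 -0.04 ± 0.21, and Dimt1, a methyltransferase of 18S ribosomal RNA, 0.02 ± 0.33. These are messenger RNA levels and do not measure the phosphorylation of LTV1 or the amount of ribosomes.

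MYC and cell division usually go with high nucleolar gene expression. Genes of both are given here beside the nucleolar genes, and a link between them was not tested. Myc had 130.3, 102 and 94.6 CPM in CK1i and 115, 85.4 and 69.1 CPM in CTRL, with overlapping groups and a log2 fold change of 0.28 ± 0.19, and its partner Max had 0.04 ± 0.14. CTRL replicate 3, the library with the highest values of most nucleolar genes, had the lowest Myc level. Mki67, whose product Ki-67 marks dividing cells, had 183, 307 and 181 CPM in CK1i and 70.6, 149 and 124 CPM in CTRL, without overlap (0.97 ± 0.31). All 22 proliferation genes had higher values in CK1i, where 51.1% of all tested genes had lower ones. Their list was chosen with earlier results of these data known. Of the 22, 14 were higher at an unadjusted edgeR p under 0.05, beside 2.65% of all genes, and 0 passed adjustment. In 12 every CK1i library lay above every CTRL library, beside 5.22% of all genes. The median deviation of the proliferation genes was lowest in CTRL replicate 1, at -0.79, and highest in CK1i replicate 2, at 0.61, where the 39 nucleolar genes had -0.070 and -0.079.

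Free ribosomal proteins L5 and L11, which carry the 5S RNA, bind MDM2 and stabilise p53 when nucleolar assembly fails. Of 6 genes listed for this response, 5 had lower values in CK1i, beside 51.1% of all tested genes, and 0 passed adjustment. Rpl5 had a log2 fold change of -0.07 ± 0.23 and Rpl11 of -0.19 ± 0.29, from 348 and 126 counts that are uncertain because ribosomal protein genes have many near-identical copies. Trp53, which encodes p53, had 0.16 ± 0.15, and Mdm2, its ubiquitin ligase, -0.13 ± 0.14. Mdm4, an inhibitor of p53 named after its values were seen, had 546, 673 and 744 CPM in CK1i and 852, 790.0 and 828 CPM in CTRL, without overlap (-0.33 ± 0.15, edgeR unadjusted p = 0.0481). Cdkn1a, a p53 target also named after its values were seen, had -0.35 ± 0.17 with overlapping groups.

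**Figure D5:**
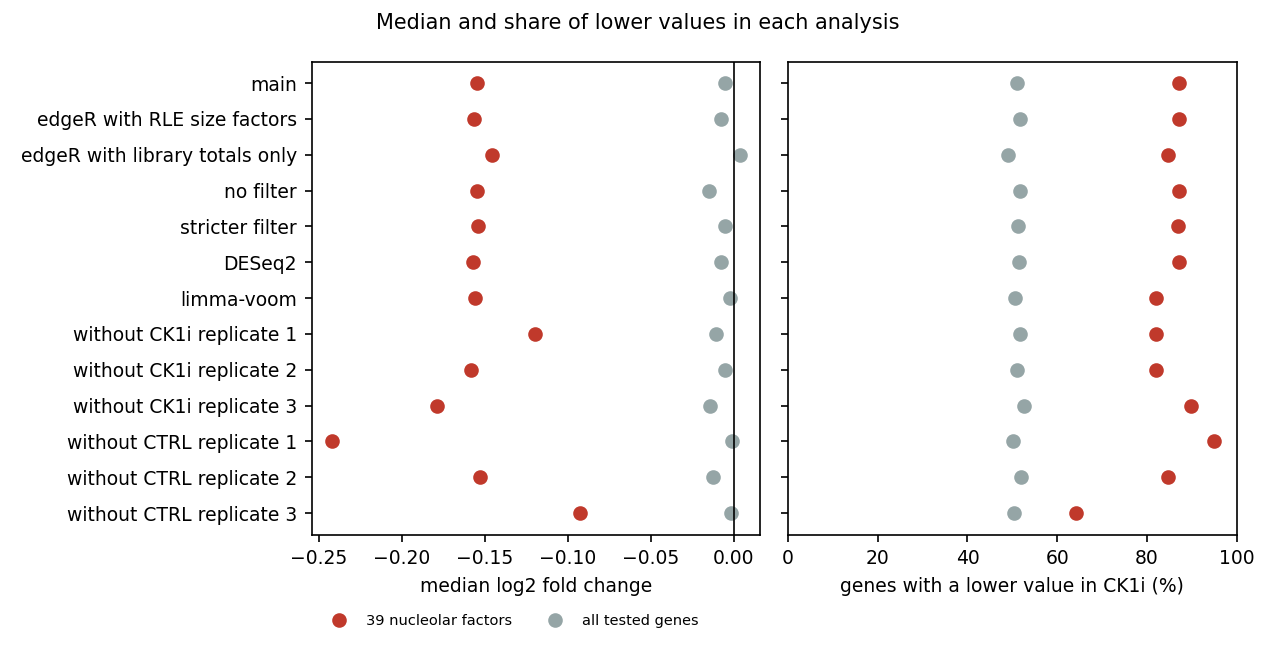
Left, median log2 fold change (x axis) of the 39 genes (red) and of all tested genes (grey) in the main analysis and in 12 alternatives (y axis); right, the share of genes with a lower value in CK1i (x axis, %). The red points run from -0.24 without CTRL replicate 1 to -0.093 without CTRL replicate 3 and lie left of the grey points in all 13 analyses.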

How the data were processed

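RNA was measured in 6 libraries of sorted splenic leukaemia cells, 3 CK1i and 3 CTRL, all with the batch label 1. The authors deposited whole-number counts per gene. Per the labels' protocols, the libraries were QuantSeq forward (3' end) with a UMI (unique molecular identifier) module, read over 75 bases. The submitters' processing notes list UMI-tools 1.1.1, Trimmomatic 0.36, STAR 2.7.3a, Picard 2.18.27, featureCounts 1.6.3 and limma, with the genome build GRCm38.p6. Whether UMIs were collapsed, and the strand setting, are not given in the sources used here. Each of the 54232 rows names a gene, and every column of values belongs to 1 of the 6 libraries.

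The test used edgeR 4.0.16 in R 4.3.3, with filterByExpr (minimum count 10, minimum total 15; 10067 genes left), TMM scaling, and the robust quasi-likelihood F test of CK1i against CTRL, two-sided, adjusted by Benjamini-Hochberg over all tested genes. Each SE was taken as the absolute log2 fold change over the square root of F. The procedure was tested on simulated data, in which genes changed far more than the nucleolar genes did here. The nucleolar genes had log2 fold changes between -0.54 and 0.07, so that test cannot show whether differences this small would be found. Alternatives were DESeq2 1.42.0 and limma-voom (limma 3.58.1), RLE size factors, library totals only, no filter, a stricter filter (mean of at least 20 counts), and leaving out each library.

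Library totals make 1 count worth 0.322 to 0.405 CPM before TMM scaling. Members, roles and gene lists were chosen with earlier results of these data known, so no p-value was computed over a list. All members are named. Values in every library are given for the 12 with the smallest p and the 4 with the highest mean CPM, Polr1a and Polr1b being added after their values were seen. From each further list up to 2 genes per direction with the smallest p are named, apart from late 40S maturation, which is given in full; not all of these are printed. Coordinates, overlaps and snoRNAs are from GENCODE M21 (GRCm38).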

Additional observations from a re-analysis of the deposited data

How the results depend on the processing

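No gene passed the threshold in the main edgeR analysis, where 467 had an unadjusted p under 0.05, or with limma-voom. With no filter on low counts, 76 of 18826 tested genes passed the threshold, and with DESeq2 8 of 10067; without 1 library the count ran from 0 to 1. None of these genes was 1 of the 39 nucleolar genes, of which 0 passed in the main analysis and in all 12 alternatives (smallest adjusted p 0.437, for Nop56 without CTRL replicate 2). The count of the 39 with lower values ran from 25 to 37 and their median log2 fold change from -0.24 to -0.093 with 1 library left out. With other tools, scalings and filters the count of lower genes was 32 to 34 and the median -0.16 to -0.15. A prior count of 2 gave a median of -0.15. The number of genes without overlap ran from 5 (12.8%) to 19 (48.7%) with 1 library left out. The share of all genes in the same fits was 17.4% to 21.8%. Otherwise 4 or 5 of the nucleolar genes (10.3% to 13.2%) did not overlap, beside 7.78% to 9.84% of all genes. With 1 library left out, Ncl ran from -0.051 (without CTRL replicate 1) to 0.16, Npm1 from -0.12 (without CTRL replicate 1) to 0.15, with -0.010 and -0.018 without CK1i replicates 1 and 3, and Ddx21 from -0.11 to 0.12 (without CTRL replicate 3). Of all 39 genes, 18 changed sign in at least 1 alternative, and 11 did so without CTRL replicate 3. The cause of these changes was not tested. No paired analysis was possible because the labels give the groups no shared replicate numbers. Depth limits Fbl most, with 10 to 20 counts in a library. The stricter filter left it out, so 38 genes were tested there.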
